A study of Mus musculus with 18 samples.

Results

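The 10 genes described here belong to the Bcl2 family, which decides whether a cell keeps its mitochondria intact or dies by the intrinsic pathway of apoptosis. They were taken by symbol, not by any measured value, from the 55450 genes of GENCODE release M21 on the mouse genome build GRCm38, and all 10 were found. The measurements were ChIP-seq peak lists of KDM2A, a demethylase that removes methyl groups from lysine 36 of histone H3, and of H3K36me2, the dimethylated form of that lysine. B cells came from the spleens of C57BL/6 mice with (WT) or without (KO) the Mir155 gene, which encodes the microRNA miR-155. They were enriched by removing cells that carry CD43, Ter119 or CD4 and cultured for 2 days in 1% O2 with anti-CD40 at 1 µg/ml, an F(ab')2 fragment against IgM at 5 µg/ml and IL-4 at 4 ng/ml, in both genotypes alike. Each genotype had 3 libraries with each antibody, and these gave the 12 peak lists used, while the 6 input libraries among the 18 samples were not analysed here on their own. In every group replicate 1 was male and replicates 2 and 3 were female. An age range is given for the mice of the study as a whole, not per library. Whether a library came from a single mouse was not given in the sources used here, so the p-values measure only the spread between these libraries, which may be technical. The labels name no cell type to which the deletion is limited.

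The family holds antagonists that balance each other on the outer mitochondrial membrane. Bcl2, Bcl2l1 (whose main product is Bcl-xL) and Mcl1 keep cells alive by holding the death-promoting members in check, while Bax and Bak1 are the effectors that permeabilise the membrane. The BH3-only proteins carry the death signal: Bcl2l11 (Bim), Bbc3 (Puma), Pmaip1 (Noxa), Bad and Bid either neutralise the survival proteins or engage the effectors. Mature B cells depend on this balance, with Bim in the removal of unselected cells and Mcl1 and Bcl-xL in survival after activation. KDM2A has a CXXC zinc finger that binds unmethylated CpG dinucleotides and so resides at CpG-rich promoters, whereas H3K36me2 lies over gene bodies and between genes.

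The upstream sequences below are shown because KDM2A is recruited by CpG and because these 6 genes span the outcomes at the promoter. Each is the 250 bases directly before an annotated RefSeq start (GRCm38.p6), 5′ to 3′ on the strand of the gene, and holds no annotated exon of GENCODE M21; capitals mark the dinucleotide CG. RefSeq promoters were matched for 9 of the 10 genes; of several free of exons the one with the most CG is shown, and the Bcl2l11 and Bbc3 sequences precede internal starts that lie inside the KDM2A peaks of all 6 lists.

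Bcl2, chr1:106714291-106714540, minus strand: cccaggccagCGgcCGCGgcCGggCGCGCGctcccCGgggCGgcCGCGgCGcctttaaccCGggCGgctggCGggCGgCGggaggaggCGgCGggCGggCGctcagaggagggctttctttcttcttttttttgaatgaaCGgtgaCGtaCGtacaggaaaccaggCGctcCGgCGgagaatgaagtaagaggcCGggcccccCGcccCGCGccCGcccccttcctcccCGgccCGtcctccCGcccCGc

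Bcl2l1, chr2:152831729-152831978, minus strand: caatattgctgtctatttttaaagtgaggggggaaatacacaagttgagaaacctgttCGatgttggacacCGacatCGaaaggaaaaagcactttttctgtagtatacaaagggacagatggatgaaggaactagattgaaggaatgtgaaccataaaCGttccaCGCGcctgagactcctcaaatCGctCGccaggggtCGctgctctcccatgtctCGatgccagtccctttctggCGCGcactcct

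Mcl1, chr3:95658471-95658720, plus strand: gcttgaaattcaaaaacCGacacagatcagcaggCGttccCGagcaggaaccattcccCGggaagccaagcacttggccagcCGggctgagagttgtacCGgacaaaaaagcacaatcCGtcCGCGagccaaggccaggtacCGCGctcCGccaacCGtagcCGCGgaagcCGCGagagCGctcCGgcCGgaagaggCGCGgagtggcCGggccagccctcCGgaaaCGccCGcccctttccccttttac

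Bax, chr7:45466899-45467148, minus strand: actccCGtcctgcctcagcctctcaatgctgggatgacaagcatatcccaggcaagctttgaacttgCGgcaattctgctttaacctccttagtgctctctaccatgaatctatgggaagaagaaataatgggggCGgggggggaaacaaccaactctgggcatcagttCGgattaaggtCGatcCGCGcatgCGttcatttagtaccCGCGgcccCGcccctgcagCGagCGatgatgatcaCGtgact

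Bcl2l11, chr2:128127325-128127574, plus strand: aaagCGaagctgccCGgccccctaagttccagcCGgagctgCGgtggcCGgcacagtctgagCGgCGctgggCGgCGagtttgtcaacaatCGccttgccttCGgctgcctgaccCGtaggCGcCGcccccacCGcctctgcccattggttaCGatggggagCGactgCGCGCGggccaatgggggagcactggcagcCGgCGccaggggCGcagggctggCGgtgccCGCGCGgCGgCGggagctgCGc

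Bbc3, chr7:16310181-16310430, plus strand: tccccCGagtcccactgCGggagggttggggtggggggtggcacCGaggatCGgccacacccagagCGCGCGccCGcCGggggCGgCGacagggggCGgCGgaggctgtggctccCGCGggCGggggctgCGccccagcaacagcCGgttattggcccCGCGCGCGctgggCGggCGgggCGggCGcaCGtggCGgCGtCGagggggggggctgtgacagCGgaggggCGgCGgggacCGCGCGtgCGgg

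The motif searched was CG, whose letters read the same on both strands. Of all 32851 RefSeq promoters, 92.1% held at least 1 CG in the same 250 bases, with a median of 6. The Bbc3 sequence held 37, a number that 2.20% of the promoters reached. Bcl2 held 36 (2.58%), Bcl2l11 held 30 (5.94%) and Mcl1 held 26 (9.59%). The other two were nearer to the middle of the distribution, with 14 in Bax (29.4%) and 12 in Bcl2l1 (33.5%). The Bbc3 and Bcl2l11 stretches were chosen as the richest in CG of several, which the promoters counted were not. Their low shares thus follow in part from that choice. Other starts free of exons held 27 (8.56%) and 23 (13.3%) at Bbc3 and 24 (12%) at Bcl2l11. No order between CG and peaks is read from these chosen stretches. At Bcl2l1 KDM2A peaks covered 137, 0 and 82 bases in WT against 0, 250 and 28 in KO, while the 250 bases before another of its starts, with 11 CG, were wholly covered in all 6 lists. Those before its remaining start, with 0 CG, were wholly covered in WT replicates 1 and 2 and KO replicate 1 and bare in the rest. At Bax 250, 47 and 250 bases were covered in WT and 6, 75 and 64 in KO. The Bcl2 stretch lay under no KDM2A peak of WT replicate 1, had 15 of its 250 bases under one in KO replicate 2, and was wholly covered in the other 4 lists. The Bbc3, Bcl2l11 and Mcl1 stretches lay wholly under a peak in all 6 lists, with 1 exception, Mcl1 in WT replicate 2, where 206 bases did.

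The lists differed in extent, and this bears on every result given below. KDM2A peaks numbered 23372 to 29105 in WT and 15387 to 21705 in KO, and covered 0.770% to 1.11% and 0.433% to 0.715% of the genome. H3K36me2 peaks covered 4.17% to 5.32% of the genome in WT and 3.63%, 1.59% and 1.44% in KO replicates 1, 2 and 3. Both female KO lists of H3K36me2 thus stood apart, with 37447 and 45180 peaks against 85387 to 106720 in the other 4. The lists carry no read numbers; sequencing depth is therefore unknown, and its part in these differences was not tested. Of 7 B cell marker genes, 7 in WT and 6 in KO had a KDM2A promoter peak in at least 2 of 3 lists, against 1 and 0 of 5 T cell markers, 0 and 0 of 5 myeloid markers and 1 and 2 of 4 erythroid markers. H3K36me2 did not separate the cell types in this way: the mean share of the gene body under its peaks over the myeloid markers was 6.12% to 22.4%, above that over the B cell markers (0% to 6.62%) in each of the 6 libraries. Peak lists do not measure expression, and fewer cells with a mark and less of it per cell cannot be told apart.

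KDM2A was found at the promoters of all 10 genes. A gene was counted as bound when a peak overlapped the windows of 2 kb on each side of any of its transcription start sites (TSS) in at least 2 of the 3 lists of a genotype. By this rule 10 of 10 members were bound in WT and 10 of 10 in KO. Among protein-coding genes 47.7% were bound in WT and 41.7% in KO, and among all genes 24.7% and 21.0%. A peak was present in all 6 lists for 8 members, which 26.4% of protein-coding genes showed; the exceptions were Bcl2, without one in WT replicate 1, and Pmaip1, without one in KO replicate 1. Of 15 further members of the family, 8 were bound in WT and 6 in KO, and Bcl2a1b and Bik accounted for the difference with peaks in 3 and 2 WT lists and in 1 and 0 KO lists. Of 16 genes of the mitochondrial and caspase arm, 14 were bound in each genotype. The 5 family genes bound in all 6 lists were Bmf, Bcl2l12, Bcl2l13, Bnip3 and Bnip3l. Bcl2a1a, Bcl2a1b and Bcl2a1d are near-identical copies, so reads cannot be assigned to them with certainty.

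The strength of binding was the fold over background that the authors' peak caller gave to the strongest peak in the windows. It has no unit and was not scaled between libraries. Mcl1, an unstable survival protein that must be made continuously, had the highest mean fold of the 10 in each genotype. Its folds were 3.50, 4.55 and 4.05 in WT and 3.70, 3.64 and 3.63 in KO (replicates 1, 2 and 3, the order used throughout). The 2 female WT libraries were above all 3 KO libraries and the male WT library was below them, so the genotypes overlapped. In that library Bcl2l11, Bad and Bbc3 had higher folds. Only 1.07% of the 10481 protein-coding genes bound in WT had a higher mean fold than Mcl1 in WT, and the peak ranked above at least 96.2% of the peaks of its list in every library. The gene lies at chr3:95658788-95663176 on the plus strand, and 1153 bp, chr3:95658515-95659667, were under a peak in all 6 lists, centred in a coding exon 234 bp after a TSS.

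Bcl2l1 had the largest difference in fold between genotypes among the 8 members tested. Its folds were 3.26, 3.89 and 3.80 in WT and 2.82, 3.08 and 2.67 in KO. Every KO library was below every WT library, with means of 3.65 ± 0.34 (SD, n = 3) and 2.86 ± 0.21 (SD, n = 3; exact permutation, two-sided, p = 0.1, which is the lowest p that 3 against 3 libraries can give). The share of the Bcl2l1 windows under peaks, 48.1%, 59.4% and 27.8% in WT against 35.1%, 22.8% and 21.9% in KO, overlapped. In the limma fit over the 7283 genes with a promoter peak in all 6 lists, with each library centred on its median, the difference in log2 fold was -0.29 (SE 0.12), with an unadjusted p of 0.0234 and a Benjamini-Hochberg adjusted p of 0.876. The gene did not pass the threshold of 0.05. In KO replicate 2 the strongest peak, with a fold of 3.08, lay 2288 bp after the nearest TSS, and the peak at the 5′ end had a fold of 2.89. Bcl2l1 lies at chr2:152780668-152831728 on the minus strand, and the 1018 bp under a peak in all 6 lists, chr2:152830586-152831603, were centred in an untranslated region 18 bp after a TSS.

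The Bcl2 promoter held the least regular peaks of the 3 survival genes. No peak was called there in WT replicate 1, and the folds were 3.42 and 3.14 in WT replicates 2 and 3 and 2.69, 2.87 and 3.10 in KO. Both WT values were above all 3 KO values, but with 1 list empty no fold could be compared across the 6 libraries, and the gene was not in the limma fit. The windows held 2 separate peaks in 4 lists, at the 5′ end and about the first coding exon, while a single peak of 3315 bp spanned both in WT replicate 3. Where there were 2, the exon peak was the stronger except in KO replicate 3. At the 5′ end the fold was 3.01 in WT replicate 2 and 2.51, 2.56 and 3.10 in KO. There KO replicate 3 was above WT replicate 2, so the order of the strongest folds mixes both sites. No base was common to all 3 WT lists, whereas 857 bases were common to the 3 KO lists, of which the longest run was chr1:106712124-106712680, centred in a coding exon 777 bp after a TSS. KDM2A peaks took up 0%, 21.6% and 65.1% of the windows in WT against 33.0%, 23.4% and 27.3% in KO, so the WT values lay on both sides of the KO values.

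Of the effectors, Bax showed the opposite order to Bcl2l1. Its folds were 3.07, 3.22 and 3.12 in WT and 3.29, 3.32 and 3.34 in KO. Every KO library was above every WT library, with means of 3.14 ± 0.08 (SD, n = 3) and 3.31 ± 0.03 (SD, n = 3; exact permutation test, p = 0.1). The difference in centred log2 fold was 0.14 (SE 0.11), with an adjusted p of 0.883 in limma, so it did not pass the threshold. The share of the windows under peaks did not follow the fold, with 80.1%, 28.9% and 69.1% in WT against 41.1%, 32.1% and 36.8% in KO. The bases common to all 6 lists were chr7:45465642-45466904, 1263 bp at the 5′ end of the gene, which lies at chr7:45461697-45466898 on the minus strand. Wide KDM2A peaks also reached the 3′ end of Bax from downstream in WT replicate 1 (11037 bp, fold 4.60), KO replicate 1 (7934 bp, fold 3.99) and KO replicate 3 (12978 bp, fold 3.28). The start of Ftl1, which encodes a ferritin subunit, lies within 2 kb of the gene body, and only the last of these peaks touched the promoter windows.

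Bak1 had the lowest mean fold of the members in each genotype, though not in every library. Its folds were 2.64, 2.73 and 3.22 in WT and 2.88, 2.71 and 2.64 in KO, which overlapped. In WT 73.5% of the bound protein-coding genes had a higher mean fold than its 2.86. The common bases, chr17:27028307-27028597, numbered 291, the fewest among the 8 members with a peak in every list. The limma difference was 0.01 (SE 0.10, adjusted p = 0.998), and without centring, which moved the median of all genes tested to -0.06, it was -0.06. The start of Ggnbp1 falls within the same windows, and a peak there cannot be given to Bak1 alone.

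**Figure D1:**
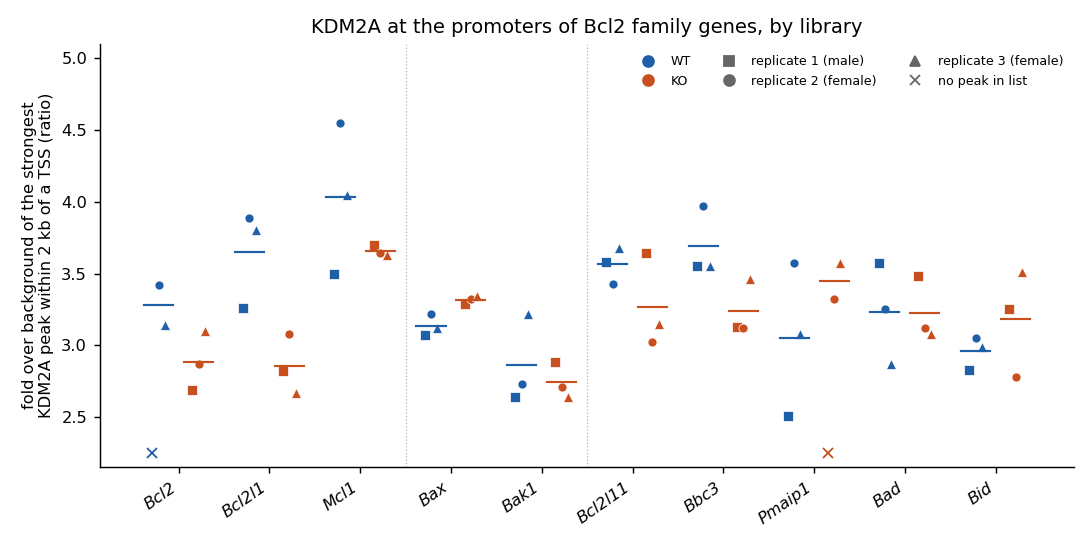
Fold over background of the strongest KDM2A peak within 2 kb of a TSS (vertical axis, a ratio) for each gene, with WT libraries in blue, KO libraries in orange, a marker shape per replicate, horizontal lines at the mean of the libraries with a peak, and crosses at the foot of the plot for lists without one. Dotted lines part survival genes, effectors and BH3-only genes; Bcl2l1 and Bbc3 were lower in every KO library and Bax higher, and the other 7 genes overlapped or lacked a peak in 1 list.

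Among the BH3-only genes, Bbc3, a target of p53, had the widest KDM2A domain. Its folds were 3.55, 3.97 and 3.55 in WT and 3.13, 3.12 and 3.46 in KO. Every KO library was below every WT library, with means of 3.69 ± 0.24 (SD, n = 3) and 3.24 ± 0.19 (SD, n = 3; exact permutation test, p = 0.1). The limma difference was -0.12 (SE 0.12, adjusted p = 0.931). A peak of 5409 to 8418 bp covered the locus in each list, with a further short peak upstream in WT replicate 2. The 5154 bp common to all 6 lists, chr7:16308949-16314102, were centred in an intron of the gene, which lies at chr7:16308393-16318205 on the plus strand and is 9813 bp long. Of its windows 78.2%, 64.7% and 62.8% were under peaks in WT against 59.3%, 71.8% and 84.6% in KO. In width the genotypes thus overlapped, while in fold they did not.

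Bcl2l11 encodes Bim, the BH3-only protein most tied to the death of B cells. Its folds were 3.58, 3.43 and 3.68 in WT and 3.64, 3.02 and 3.15 in KO. The male KO library lay among the WT libraries and both female KO libraries below them, and the limma difference was -0.06 (SE 0.12, adjusted p = 0.972). The peak of KO replicate 2 was split into 2 short peaks of 483 and 542 bp, before the first and at the internal start, where the other 5 lists had 1 peak of 1943 to 3313 bp over both. The longest run common to all lists was chr2:128127053-128127594, centred in the intron before the internal start, and holds the whole of the Bcl2l11 sequence shown above.

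Pmaip1 encodes Noxa, which binds Mcl1. Its folds were 2.51, 3.57 and 3.08 in WT and 3.32 and 3.57 in KO replicates 2 and 3, with no peak in KO replicate 1. Of its windows 50.5%, 49.7% and 41.4% were under peaks in WT against 0%, 11.1% and 39.4% in KO. Every KO library was below every WT library, with means of 47.2% ± 5.05 (SD, n = 3) and 16.8% ± 20.3 (SD, n = 3; exact permutation test, p = 0.1). The lists of KO held fewer KDM2A peaks in all, and among the 19692 genes with any promoter coverage 10.2% were lower in every KO library and 0.919% higher. Pmaip1 was the only 1 of the 10 members lower, and 0 were higher, so the members' share was close to the background.

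Bad, which phosphorylation by survival kinases holds inactive, had folds of 3.57, 3.25 and 2.87 in WT and 3.48, 3.12 and 3.08 in KO. Bid, which caspase 8 cleaves into its active form, had folds of 2.83, 3.05 and 2.99 in WT and 3.25, 2.78 and 3.51 in KO. Both genes overlapped between genotypes, with limma differences of 0.07 (SE 0.12, adjusted p = 0.969) for Bad and 0.16 (SE 0.11, adjusted p = 0.876) for Bid. Each has starts in 2 separate windows, and the 3′ window of Bad also holds the start of Gpr137, as the Bid windows hold that of Gm44260. The strongest Bad peak lay in that 3′ window in WT replicate 3 and KO replicate 2. The peaks at its 5′ end had folds of 2.84 and 3.05 there. In WT replicate 2 the strongest Bid peak, with a fold of 3.05, lay in the internal window, upstream of the nearest TSS. WT replicate 3 had a separate peak in that window, 1805 bp after a TSS, and the other 4 lists had none there. At the 5′ end 404 bp of Bid and 1012 bp of Bad were common to all 6 lists.

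Over the 7283 genes tested, limma called 0 (0%) at an adjusted p under 0.05, and 391 (5.37%) had an unadjusted p under 0.05. Of the 8 members tested, 0 were called, and 1, Bcl2l1, had an unadjusted p under 0.05. Bcl2l1 and Bbc3 were lower in every KO library after centring and Bax higher, which 5.56% and 5.35% of the genes tested were. With 8 members tested these are 3 genes, and none of them passed the test over all genes. The median difference of the members was -0.03, with 4 lower and 4 higher in KO, beside a median of 0.00 over all genes tested. Of 17 further pathway genes tested, 0 were called. The 2 with the largest increase were Vdac2, a channel of the outer membrane that binds Bak1, at 0.21 (SE 0.11), and Htra2, a mitochondrial protease, at 0.18 (SE 0.14). The largest decrease was that of Diablo, an antagonist of caspase inhibitors, at -0.18 (SE 0.11).

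The study sorted peaks into WT-enriched and KO-enriched classes by the ratio of the averaged KDM2A signal to the input signal. Its thresholds were applied here to another quantity, the peak caller's fold of the strongest promoter peak in each list, so the classes are not the study's own: bound in at least 2 of 3 lists, a mean fold above 3, and a mean above that of the other genotype by a factor of 1.17 where both were bound. Bcl2l1 was WT-enriched and no member was KO-enriched, and of the 14397 genes bound in either genotype 11.3% were WT-enriched and 2.01% KO-enriched. The count of 1 in 10 was close to the background. It was 4 without KO replicate 3, when Bcl2, Bbc3 and Pmaip1 joined Bcl2l1, and 2 without WT replicate 1, when Mcl1 joined it, or without KO replicate 2, when Pmaip1 did. Without WT replicate 2 Pmaip1 became KO-enriched. The shares of all genes with a library left out are not given here, so these counts are not read as results about the members. Bcl2l1 itself was WT-enriched under every alternative run.

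H3K36me2 over the gene bodies was dominated by Bcl2, the founding survival gene, whose 176097 bp make it the longest of the 10. Its body at chr1:106538178-106714274 was covered by H3K36me2 peaks over 52.4%, 58.8% and 55.7% of its bases in WT and 38.2%, 25.1% and 24.7% in KO. Every KO library was below every WT library, with means of 55.6% ± 3.19 (SD, n = 3) and 29.4% ± 7.71 (SD, n = 3; exact permutation test, p = 0.1). Of 1925 protein-coding genes of 100 to 300 kb, 5 had a higher mean in WT and 4 in KO, where the medians were 3.32% and 1.33%. The limma difference was -26.3 percentage points (SE 11.2, unadjusted p = 0.0574, adjusted p = 0.384), which did not pass the threshold. Relative to how much of the genome each list covered, Bcl2 had 12.6, 11.0 and 10.6 times the genome's coverage in WT against 10.5, 15.8 and 17.1 times in KO. The direction was then turned, with a difference of 3.08 (SE 4.21, adjusted p = 0.788 in limma), and the genotypes overlapped.

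Along Bcl2, cut into 10 segments of equal length, the mark was present in every segment in both genotypes. Means per segment ran from 25.8% to 83.7% in WT and from 11.8% to 41.5% in KO, and in both the lowest was the first segment, which holds the promoter, and the highest the eighth. In 8 of 10 segments every KO library was below every WT library, the exceptions being the fifth and the seventh. The peaks were shorter in KO, while their numbers overlapped: the windows and body held 38, 31 and 37 peaks of a median 2077, 2137 and 1719 bp in WT and 63, 27 and 36 peaks of 736, 1102 and 867 bp in KO. Over the whole lists the median widths were 858, 1019 and 939 bp in WT and 661, 873 and 677 bp in KO. There KO replicate 2 was above WT replicate 1. The gene models D630008O14Rik, Gm37053 and Mir3473f start within the Bcl2 body or 2 kb of it.

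KDM2A peaks over the gene body were lower in every KO library at 3 of 10 members, Bcl2, Bcl2l11 and Bad, and higher at 0, beside 11.2% and 0.983% of the 20031 genes with any such coverage. Over Bcl2 they numbered 14, 7 and 8 in WT and 4, 4 and 6 in KO, and covered 4.69%, 2.43% and 2.90% against 1.00%, 1.23% and 1.92% of the body (exact permutation test, p = 0.1). Over Bcl2l11 the coverage was 11.4%, 9.61% and 8.56% in WT against 7.07%, 1.48% and 8.25% in KO, with KO replicate 3 just below the lowest WT library. Over Bad it was 33.7%, 36% and 29.4% in WT against 11.1%, 11.4% and 24.4% in KO. The KO lists held fewer KDM2A peaks in all, and the part of this in the 3 values was not tested.

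**Figure D2:**
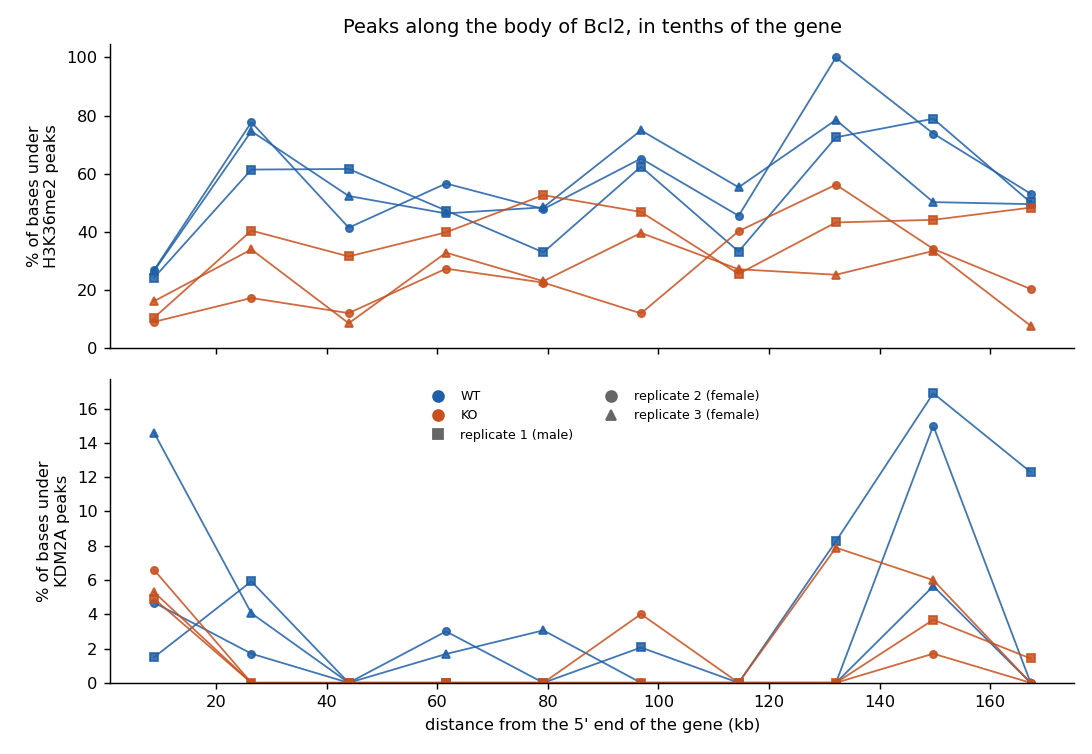
Share of the bases of each of 10 equal segments of Bcl2 under H3K36me2 peaks (upper panel, %) and KDM2A peaks (lower panel, %) against the distance of the segment's middle from the 5′ end of the gene (kb), 1 line per library. H3K36me2 in the 3 KO libraries lay below the 3 WT libraries in 8 of 10 segments, and KDM2A stayed at or below 16.9% in every segment.

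The other survival genes carried little H3K36me2. Over Bcl2l1 the coverage was 7.56%, 5.22% and 3.81% in WT against 1.55%, 0% and 0% in KO, lower in every KO library (exact permutation test, p = 0.1), with a limma difference of -5.01 points (SE 1.65, adjusted p = 0.384). Over Mcl1 it was 0% in all 6 libraries. The mark lay instead directly before Mcl1: a peak that ended upstream of the gene reached into the promoter windows in all 6 lists and covered 28.0%, 33.9% and 29.5% of them in WT and 40.1%, 8.99% and 18.2% in KO. Mcl1 was the only 1 of the 10 members with an H3K36me2 promoter peak in every list.

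The effectors had little H3K36me2 over their bodies. Over Bax the coverage was 0% in all 6 libraries. Over Bak1 it was 10.5%, 0% and 15.0% in WT and 0% in the 3 KO libraries, so WT replicate 2 was at the level of KO. In the promoter windows of Bak1 the coverage was 45.4%, 32.0% and 31.1% in WT against 4.51%, 0% and 23.8% in KO, lower in every KO library (exact permutation test, p = 0.1). In those of Bax it was 13.0%, 0% and 14.9% in WT against 15.9%, 0% and 0% in KO, which overlapped.

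Of the BH3-only genes, Bad had the highest mean H3K36me2 coverage of its body in WT, though not in KO, where Bbc3 did. Its coverage was 14.8%, 47.4% and 29.8% in WT against 9.43%, 0% and 0% in KO, lower in every KO library (exact permutation test, p = 0.1), with a limma difference of -27.5 points (SE 9.96, unadjusted p = 0.0323, adjusted p = 0.384). Over Bid it was 9.37%, 5.58% and 7.33% in WT against 4.13%, 0% and 0% in KO, also lower in every KO library, with a limma difference of -6.05 points (SE 2.29, adjusted p = 0.384). Unlike at Bcl2, the coverage of Bad was still lower in every KO library after division by the genome's share, at 3.55, 8.90 and 5.68 times in WT and 2.60, 0 and 0 times in KO. Over Bbc3 it was 11.1%, 8.26% and 15.0% in WT against 10.4%, 0% and 0% in KO, and over Bcl2l11 0%, 2.5% and 3.83% against 1.22%, 0% and 0%, with overlap at both. Over Pmaip1 it was 0% in all 6 libraries.

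In the promoter windows, H3K36me2 was lower in every KO library at 4 of 10 members, Bak1, Bcl2l11, Bbc3 and Bid, which 17.3% of the 23224 genes with any such coverage were. A peak was present in at least 2 of 3 lists at 10 members in WT and at 4 in KO, Mcl1, Bak1, Bbc3 and Bad, beside 40.8% and 20.9% of protein-coding genes. Bad counted in KO only through a peak of KO replicate 3 that covered 0.0537% of its windows and was centred 2307 bp from the nearest TSS, downstream of the gene. Bbc3 had 33.9%, 30.8% and 26.0% in WT and 23.5%, 0% and 16.8% in KO. Bcl2l11 had 7.5%, 19.9% and 5.35% in WT and 4.46%, 0% and 0% in KO, and Bid 7.45%, 19.4% and 18.8% against 2.20%, 0% and 0%. With peaks of a −log10 q of at least 2 the difference at Bid turned to 0.73 points. The male KO library was the highest of the 3 KO libraries at 7 members, Bak1 being lower there than in KO replicate 3, and Bcl2l1 and Pmaip1 were at 0% in all 3. At Bcl2 the male KO library, at 41.1%, was above all WT libraries, which had 26.6%, 20.4% and 37.9%, while both female KO libraries were at 0%.

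**Figure D3:**
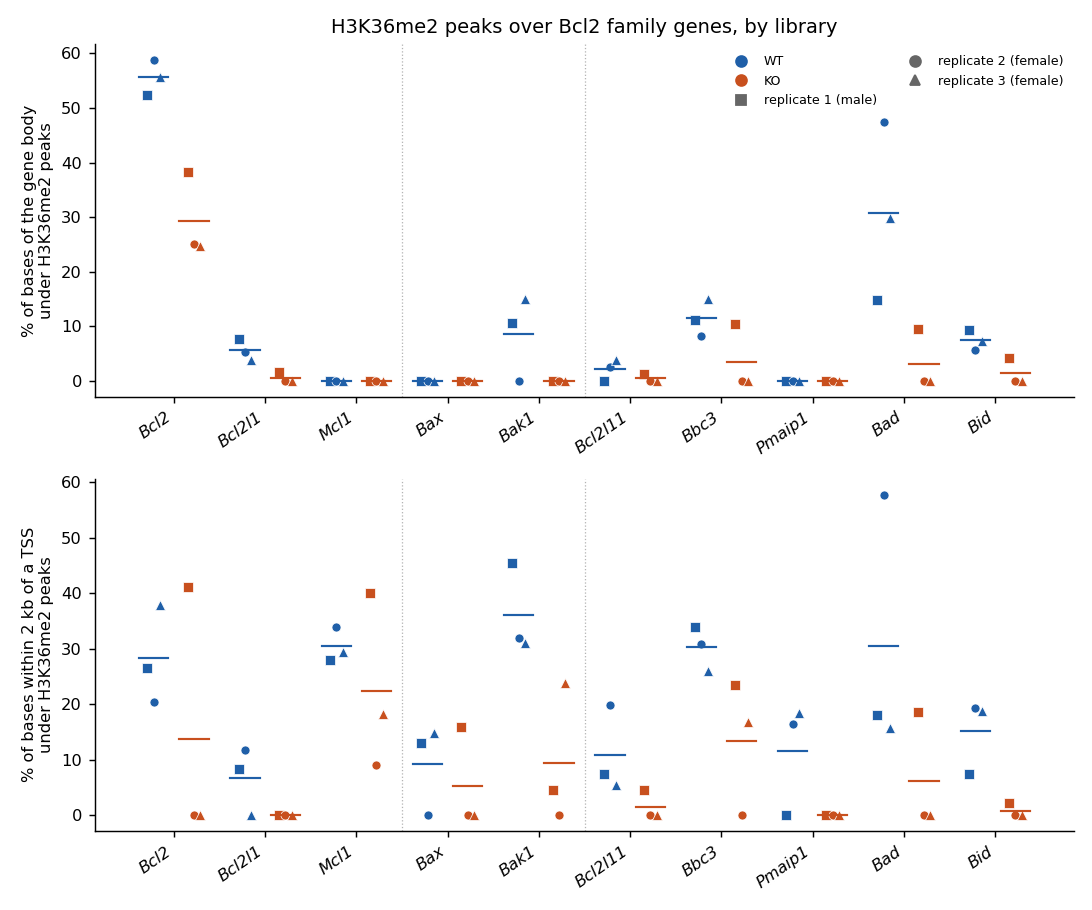
Share of bases under H3K36me2 peaks (vertical axes, %) over the gene body (upper panel) and within 2 kb of any TSS (lower panel) for each gene, with WT in blue, KO in orange, a marker shape per replicate and lines at the mean of 3 libraries. Over the bodies of Bcl2, Bcl2l1, Bad and Bid every KO library was below every WT library, and the female KO libraries were at 0% at all bodies but Bcl2.

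Over the 17714 genes with a mean H3K36me2 coverage of at least 1%, limma called 40 (0.226%), 39 lower and 1 higher in KO, and 0 of the 7 members tested. The 40 held no protein-coding gene and were at most 849 bp long. At the level of the libraries, 4 of the 7 members, Bcl2, Bcl2l1, Bad and Bid, were lower in every KO library and 0 higher, beside 22.5% and 0.102% of the genes tested. The count was 1 with equal numbers of peaks from each list and 0 with peaks of a −log10 q of at least 2. The shares of all genes at these settings are not given here. Divided by the genome's share the count was 2, Bcl2l1 and Bad, beside 8.41% of the genes tested. With replicate 1 as the only KO library it was 4, and it could not have been lower, since that library was among those that defined the 4. The difference was below 0 at all 7 members, with a median of -8.02 points, while over all genes tested it was below 0 at 87.4% with a median of -7.10 points. Of 16 further pathway genes tested, 0 were called; the largest decrease was that of Bmf, a BH3-only gene, at -28.0 points (SE 12.4), and the 2 with the largest increase were Casp9 at 1.02 points (SE 1.45) and Bik at 0.50 points (SE 2.83).

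**Figure D4:**
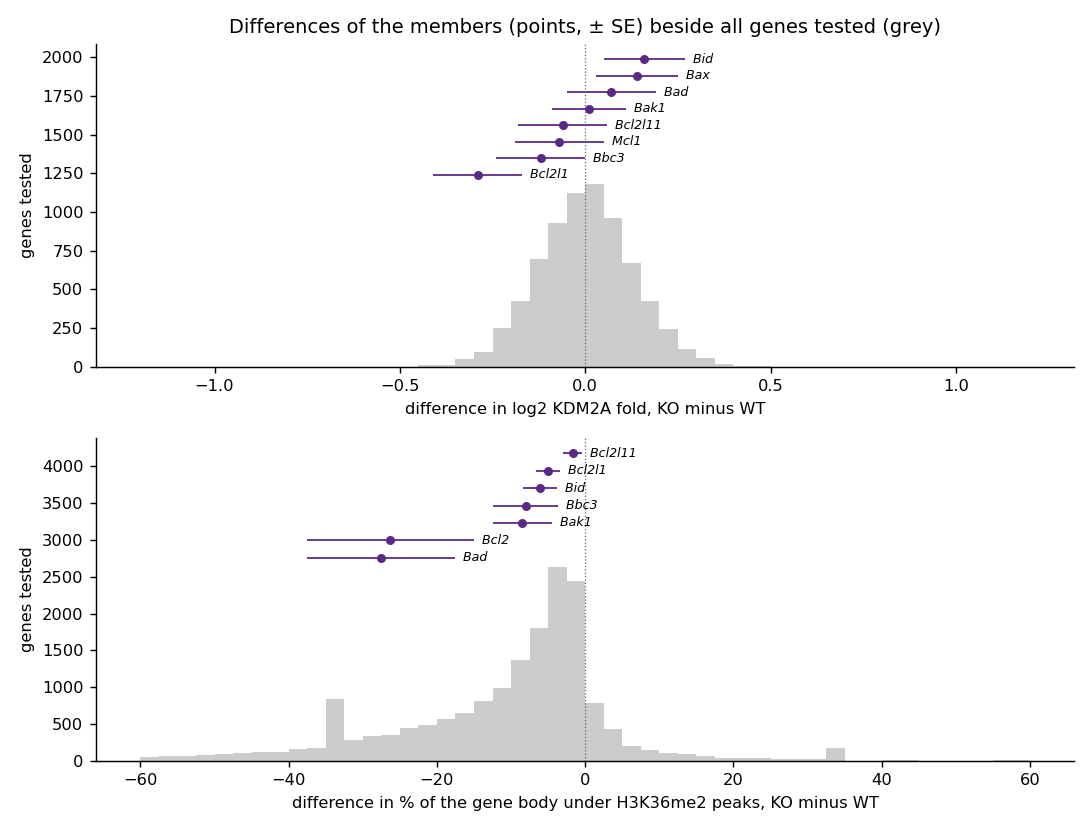
Differences between KO and WT in log2 KDM2A fold (upper panel) and in percentage points of the gene body under H3K36me2 peaks (lower panel), with each member tested as a point with its SE from limma, set above a grey histogram of all genes tested (vertical axis, number of genes). Bcl2l1 lay furthest to the left for KDM2A and all 7 members lay below 0 for H3K36me2, as did 87.4% of the genes; 473 genes beyond 60 points are not drawn.

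The balance of KDM2A and H3K36me2 differed between the first kb of the genes and the stretch before them. In the first kb of the gene KDM2A peaks covered a mean over the 10 members of 77.9% to 88.0% in WT and 64.7% to 84.7% in KO, and H3K36me2 peaks 10.9% to 22.9% in WT and 9.99%, 0% and 0% in KO. From 5 to 2 kb before the gene the order was the reverse, with KDM2A at 9.79% to 11.6% in WT and 1.71% to 5.83% in KO and H3K36me2 at 41.9% to 49.8% in WT and 38.9%, 7.96% and 11.4% in KO. H3K36me2 reached the first kb in 2 or 3 of the 10 members per WT list and in 2, 0 and 0 per KO list. The share of all genes for this stretch is not given here. In the promoter windows 40.8% of protein-coding genes had such a peak in at least 2 of 3 WT lists and 20.9% in KO. Over all the promoter windows, 15.5% to 21.5% of the bases under KDM2A peaks were also under H3K36me2 peaks of the same-numbered library in WT, and 11.4%, 0% and 2.06% in KO. Conversely 42.1%, 23.5% and 55.3% of the bases under H3K36me2 peaks were also under KDM2A peaks in WT, where KDM2A covered 47.3%, 39.9% and 48.2% of all window bases. In KO these shares were 28.4%, 0% and 16.8%, where KDM2A covered 36.2%, 29.1% and 43.7%. The share under KDM2A was thus below that of the windows as a whole in 5 of 6 libraries and above it in WT replicate 3, and the difference was not tested.

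**Figure D5:**
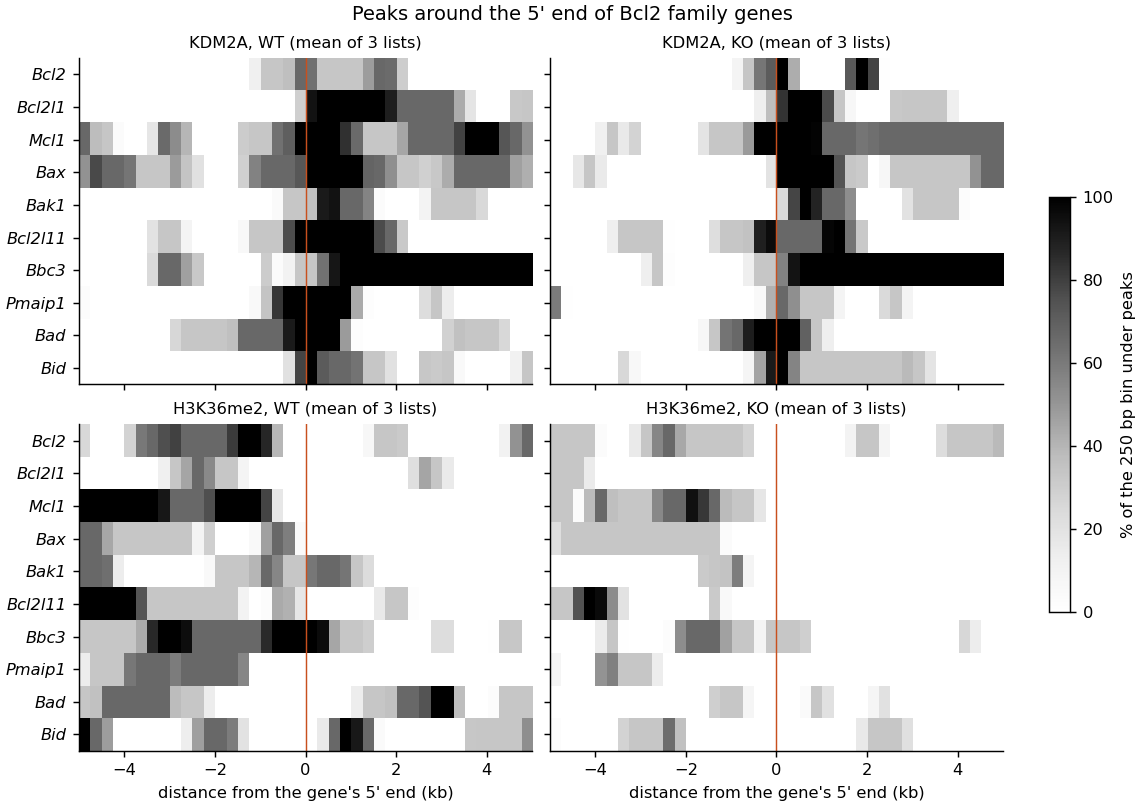
Share of each 250 bp bin under KDM2A peaks (upper panels) and H3K36me2 peaks (lower panels), from white at 0% to black at 100% as the mean of 3 lists, against the distance from the 5′ end of each gene (kb, downstream to the right), for WT (left) and KO (right). As a mean over the 10 members, KDM2A covered more of the first kb than of the stretch 5 to 2 kb before in both genotypes, and H3K36me2 less. Single genes differed: from 500 to 1000 bp KDM2A was at 0% at Bcl2 in KO and at 100% at Bax in both genotypes. At Bak1 in WT H3K36me2 was at 60.9% to 66.7% in the first kb. It was at 0% there from -4000 to -2250 bp and at up to 66.7% further upstream.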

How the data were processed

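Chromatin was crosslinked with EGS and then formaldehyde. Using nf-core/chipseq, the authors mapped the reads to GRCm38 (BWA) and ran MACS2 in broad mode on each library separately, without pooling; tool versions for these steps are not used here. The deposited lists give each peak a fold (a ratio over local background, not scaled between libraries) and −log10 p and q values. The smallest deposited −log10 q was 1. Depth is unknown, so no counting interval is given. The deposited score was not used.

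All 590705 peaks were scored over GENCODE M21 genes, by overlap of at least 1 bp (Python 3.11.15). Folds were tested with limma 3.58.1 (R 4.3.3) on log2 values centred per library, over genes with a peak in all 6 lists. Coverage was tested with limma on percent of gene body, over genes with a mean of at least 1%. Single values were tested by exact permutation, two-sided (smallest p 0.1 with 3 against 3). Adjusted p-values are Benjamini-Hochberg over all genes tested, at a threshold of 0.05. The fits were tested on simulated data: of 200 genes changed by 1 in log2 fold, 97.5% were recovered, and 0% of those changed by 0.5. For coverage, 42.5% of changes of 60 points were recovered and 0% of 20 or 40 points. So the tests reach only large differences. All 10 members and, of the other pathway genes, those called or with the 2 largest increases and decreases per antibody are named, except 1 result that is not reported here. Members, lists and tests were chosen with earlier results of these data known. Alternatives covered window size, start choice, centring, scaling, stricter q, equal peak numbers, the replicate block and leaving out each library.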

Additional observations from a re-analysis of the deposited data

Results flagged for a closer look

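Replicate 1 was the only male library in each group, and at 7 members the difference between KO and WT in the male pair had the opposite sign to all 4 female pairings in at least 1 measure. With 1 male library per genotype and antibody this difference was not tested, and sex cannot be told apart from the replicate. The share of all genes that met the same rule is not given here, so the count is not read as particular to the members.

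For KDM2A fold, Mcl1 was 0.20 higher in KO in the male pair and 0.40 to 0.92 lower in the female pairings (-0.92 to -0.40). Bak1 was 0.24 higher in the male pair (female pairings -0.59 to -0.02) and Bcl2l11 0.07 higher (female pairings -0.66 to -0.28). For the share of the TSS windows under KDM2A peaks, Bbc3 had a male difference of -18.9 points against 7.09 to 21.8 points in the female pairings, and Bid 4.62 points against -18.4 to -1.22 points.

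For H3K36me2 in the TSS windows, the male difference was 14.4 points at Bcl2 (female pairings -37.9 to -20.4), 12.1 points at Mcl1 (-24.9 to -11.3) and 0.462 points at Bad (-57.8 to -15.7). Over the gene body it was 1.22 points at Bcl2l11 (-3.83 to -2.5). The male KO list of H3K36me2 covered 3.63% of the genome and the female KO lists 1.59% and 1.44%; the part of this in the 4 values was not tested.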

How the results depend on the processing

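The members' values rest on 3 libraries per genotype of unknown depth, and on peaks, which give nothing below the caller's threshold. No member passed a test in limma under any setting. For KDM2A fold, 0 genes were called under every alternative, each library left out in turn included. For H3K36me2 over gene bodies, 40 genes were called, 0 after division by the genome's share, with equal numbers of peaks or outside the TSS windows, 15 at a −log10 q of at least 2, 45 with no filter, and 0 to 145 with 1 library left out (87 without WT replicate 1, 145 without KO replicate 1, 0 without any of the other 4). With the replicate number as a block 0 were called for either antibody. Same-numbered libraries did not deviate together (correlations of -0.015 to 0.021 for KDM2A and -0.001 to 0.023 for H3K36me2), so the numbers were not read as pairs, and not every library correlated best with its own number.

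The number of members with H3K36me2 lower over the body in every KO library was 4, but 2 after division by the genome's share, 1 with equal numbers of peaks, 0 at the stricter q and 4 to 6 with 1 library left out. This count, and the shares of the TSS windows, were examined under alternatives chosen after seeing the data. WT-enriched members numbered 1, but 2 when a peak was asked in 3 of 3 lists and 1 to 4 with 1 library left out; KO-enriched members numbered 0 to 1 then. Members bound numbered 9 to 10. Shares of all genes under these alternatives, other than division by the genome's share, are not given here. The members' counts under them are therefore not read as results about the members.

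Some differences changed sign. For KDM2A fold these were Bak1 (-0.06 uncentred and -6.92 as percentile rank, where the medians of all genes tested were themselves -0.06 and -5.9, -0.01 as mean fold, and -0.06 to 0.10 with 1 library left out) and Bad (-0.01 to 0.17). H3K36me2 over Bcl2 turned to 3.08 when divided by the genome's share. For KDM2A in the TSS windows, Bak1 turned to 3.19 points with equal numbers of peaks and Bid to 1.58 at the stricter q. With 1 library left out, the ranges were -15.43 to 17.10 for Bcl2, -4.05 to 21.29 for Mcl1, -8.66 to 8.04 for Bak1, -15.18 to 1.62 for Bcl2l11 and -3.01 to 9.65 for Bbc3. For H3K36me2 in the TSS windows, the stricter q gave 2.71 for Bcl2, 4.03 for Mcl1, 0.02 for Bad and 0.73 for Bid, and division by the genome's share gave 3.54 for Mcl1. Other than for these shifts of all genes, the cause was not tested.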
